A study of Mus musculus with 11 samples.

Results

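The NF-κB family of transcription factors and their inhibitors were followed at the transcript level in clonotype+ Treg cells. The family was taken as 10 genes listed by name, 5 encoding subunits (Nfkb1, Nfkb2, Rel, Rela and Relb) and 5 encoding inhibitors or modulators (Nfkbia, Nfkbid, Nfkbiz, Tnfaip3 and Bcl3). All 10 were found among the 52997 genes of the count table, and all 10 were among the 12932 genes that were expressed highly enough to be tested. The cells were vTreg53 TCR-transgenic CD45.2+ Foxp3-GFP Treg cells, which are heterozygous for Tcra and Tcrb transgenes from a single Treg clone of visceral adipose tissue (VAT). Cells were sorted as clonotype+, and the share of cells with other TCRs was not measured in these libraries. Donor cells from pooled spleen and lymph nodes (Spl/LN) of male mice were transferred i.v. into male CD45.1+ C57BL/6 recipients. The labels give an age of 15 weeks without saying whether it is that of the donor or the recipient. By the methods, both were of the same age range at transfer. After 6 weeks the recipients received adjuvant with Fat1562, a synthetic peptide that the vTreg53 TCR recognizes, in CFA s.c. and 1 week later in IFA i.p., or they served as controls. The controls are described as given adjuvant alone in the paper and as PBS or unimmunized in the labels, and they are called adjuvant alone here. If the labels hold, every difference given below as one of the peptide is one of adjuvant and peptide together, which cannot then be told apart. Each library came from 1000 double-sorted cells, and the 4 groups were Spl/LN with adjuvant alone (n = 3), Spl/LN with adjuvant/Fat1562 (n = 3), VAT with adjuvant alone (n = 2) and VAT with adjuvant/Fat1562 (n = 3).

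NF-κB subunits bind DNA as dimers. In resting cells IκB proteins such as IκBα, the product of Nfkbia, hold most dimers in the cytoplasm, and signals from the TCR, from costimulatory receptors of the TNF receptor family or from IL-1 family receptors trigger the destruction of IκB and release the dimers to the nucleus. Several inhibitors are themselves induced by NF-κB and close a negative feedback loop. In Treg cells c-Rel, the product of Rel, is known for its part in Foxp3 induction during thymic development, and RelA and c-Rel for the maintenance of mature and activated Treg cells.

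Total counts ran from 4490242 to 6570057 per library. The sorted cells had the transcripts of their label: Foxp3, the Treg lineage factor, measured 6758 to 10273 normalized counts in the 11 libraries, and Cd4 measured 2118 to 3524. Markers of macrophages and monocytes (7 genes) summed to 6.25 to 26.2 CPM (counts scaled to library totals times their TMM normalization factors) in Spl/LN and 4.91 to 16.0 in VAT. Those of dendritic cells (5 genes) were higher in VAT, at 20.8 to 42.3 against 9.47 to 14.8 in Spl/LN, with Xcr1 and Zbtb46 making up most of the sum and Flt3, Itgax and Siglech at 4.8 normalized counts or fewer in every library. Those of CD8 T and NK cells (5 genes), mostly Cd8b1, summed to 32.5 and 36.5 in VAT with adjuvant alone. These markers summed to 18.3 to 25.6 in VAT with adjuvant/Fat1562 and 18.0 to 28.5 in Spl/LN, and Cd8a measured 0 in every VAT library. Those of adipocytes, stroma and endothelium (7 genes), mostly Pecam1, summed to 57.9 and 49.8 in VAT with adjuvant alone, 84.4 to 117 in VAT with adjuvant/Fat1562 and 93.1 to 111 in Spl/LN. The part of these cell types in the results was not tested. VAT adjuvant alone replicate 2 stood apart in the immunoglobulin transcripts Ighm and Igkc, which measured 28595 and 10338 normalized counts against 6028 and 784 in replicate 1 of the same group. The 7 B cell markers summed to 7450 CPM in it and 1428 in replicate 1, to 1413 to 1874 in VAT with the peptide and to 2479 to 3696 in Spl/LN. The B cell surface marker Ms4a1 did not exceed 6.5 normalized counts in any library. By the chi-square per degree of freedom between libraries of a group, Spl/LN adjuvant alone replicate 3 was the most distant, at up to 11.6 from the other libraries of its group, which lay 6.96 apart, where pairs in the other groups lay 5.45 to 8.61 apart. Without that library the numbers of family genes called were as with it in all comparisons, although in the interaction Nfkbiz took the place of Tnfaip3.

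Upstream sequences of 3 of the 5 genes that differed several-fold between tissues are shown, because genes of this feedback loop are known targets of NF-κB itself. Promoter sequence from RefSeq (GRCm38.p6) was at hand for 7 of the 10 genes, the others being Nfkb1, Relb and Nfkbiz. The last 250 bases before a start site were searched on both strands for the NF-κB consensus decamer, which 7.25% of 32851 such windows of 27025 genes contain at least once and 1.03% at least at 2 positions. Capitals mark the matches in the windows of Nfkbia (chr12:55492648-55492897, minus strand), Rel (chr11:23770970-23771219, minus strand) and the second of the 3 Nfkbid start sites (chr7:30422156-30422405, plus strand), each written 5′ to 3′ in the direction of transcription.
Nfkbia: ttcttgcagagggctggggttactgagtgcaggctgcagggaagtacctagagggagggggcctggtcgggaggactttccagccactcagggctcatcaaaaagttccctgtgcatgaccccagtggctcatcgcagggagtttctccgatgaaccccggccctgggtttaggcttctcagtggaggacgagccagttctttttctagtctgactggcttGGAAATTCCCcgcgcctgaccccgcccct
Rel: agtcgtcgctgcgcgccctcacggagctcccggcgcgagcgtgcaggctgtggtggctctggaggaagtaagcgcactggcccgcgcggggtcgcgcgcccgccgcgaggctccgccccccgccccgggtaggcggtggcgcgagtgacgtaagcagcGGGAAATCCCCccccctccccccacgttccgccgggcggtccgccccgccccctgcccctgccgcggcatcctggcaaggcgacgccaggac
Nfkbid: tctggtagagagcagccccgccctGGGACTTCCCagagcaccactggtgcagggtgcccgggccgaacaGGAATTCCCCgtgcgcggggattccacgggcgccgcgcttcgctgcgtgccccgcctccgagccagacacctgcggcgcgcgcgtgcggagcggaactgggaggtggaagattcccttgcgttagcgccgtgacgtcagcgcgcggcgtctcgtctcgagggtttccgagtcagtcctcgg
The Nfkbia window held 1 match, 29 to 20 bases before the start site. The Rel window held 2 overlapping matches, the first 92 to 83 and the second 91 to 82 bases before the start. The Nfkbid window held 2 separate matches, 226 to 217 and 181 to 172 bases upstream, whereas the windows of the other Nfkbid start sites held 0. For Tnfaip3, 2 matches lay 125 to 116 and 12 to 3 bases before its first start site, and the window of its other start site held 0. The windows of the 3 Nfkb2 start sites held 3, 1 and 1 matches, and all of them lie partly or wholly in annotated exon. The windows of Rela and Bcl3 held 0 matches. A match describes letters and not binding, which was not measured in these libraries.

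The 5 subunit genes were all transcribed in all 4 groups, and only Rel differed several-fold between tissues. Levels were also expressed per kb of annotated exon, which assumes reads spread over all annotated exons, so the order of genes depends on these lengths. On this scale Rela and Relb led in Spl/LN with adjuvant alone at 375 ± 18.1 and 305 ± 24.8 normalized counts per kb (mean ± SD, n = 3), followed by Nfkb2 at 284 ± 14.7. Rel and Nfkb1 were the lowest at 70.6 ± 6.84 and 69.3 ± 9.13 per kb, and these neighbours did not differ beyond their spread, nor did Relb and Nfkb2. Before division by length, Nfkb1 was above Rel, at 836 ± 110 and 527 ± 51.1 normalized counts, with 12.1 and 7.47 kb of annotated exon. In VAT with adjuvant/Fat1562 the order was different, with Nfkb2 at 376 ± 36.3, Rel at 342 ± 36.9, Relb at 302 ± 24.9, Rela at 273 ± 13.7 and Nfkb1 at 83.4 ± 10.5 per kb (n = 3), where the SDs of neighbours overlapped from Nfkb2 down to Rela.

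Rel, which encodes c-Rel (chr11:23736847-23770970, minus strand, GRCm38), measured 562, 549.8 and 468 normalized counts in Spl/LN with adjuvant alone and 543, 604 and 562 in Spl/LN with adjuvant/Fat1562. Its values in VAT were 1871 and 1477 with adjuvant alone and 2635, 2774 and 2243 with adjuvant/Fat1562. Every VAT library was above every Spl/LN library, and the adjuvant/Fat1562 libraries of VAT were all above its adjuvant alone libraries. Between tissues Rel was higher in VAT by 1.67 ± 0.13 on the log2 scale (SE; 3.18-fold; edgeR adjusted p = 3.59e-08) with adjuvant alone and by 2.16 ± 0.12 on the log2 scale (SE; 4.48-fold; edgeR adjusted p = 9.47e-10) with adjuvant/Fat1562.

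**Figure D1:**
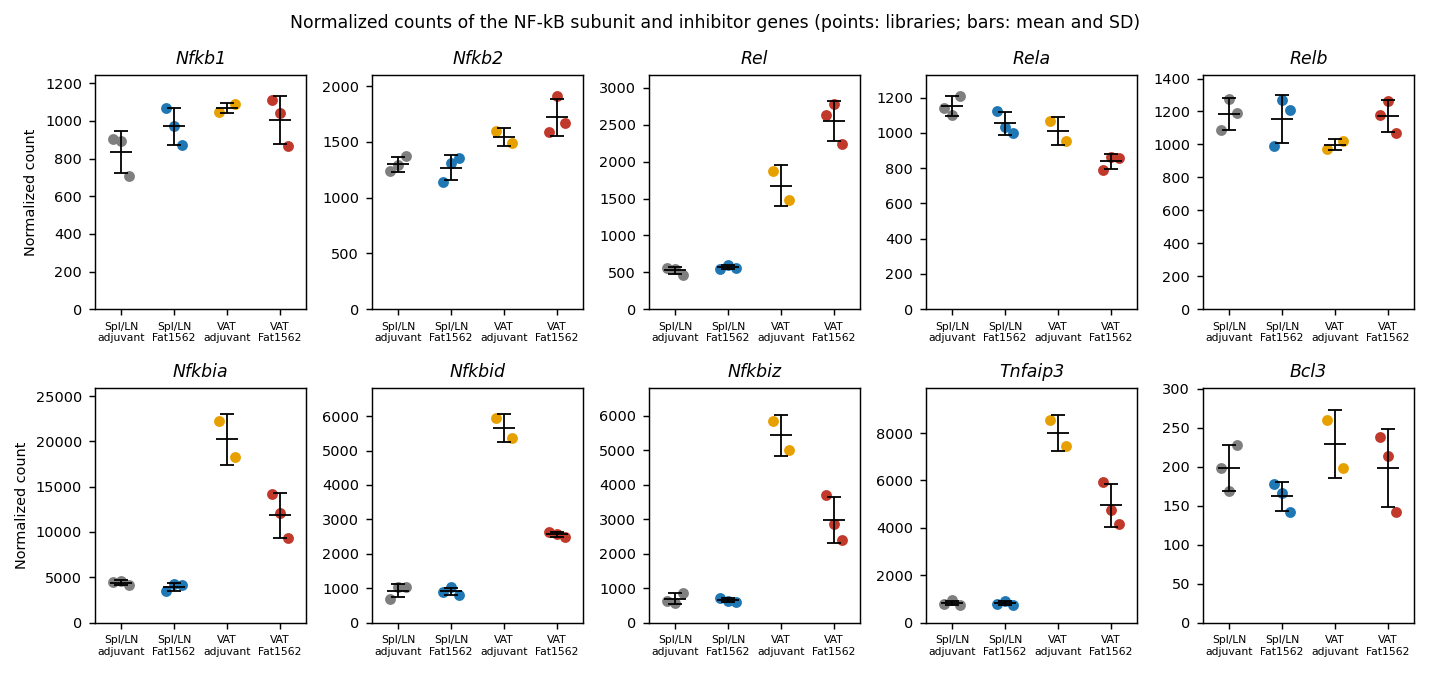
Normalized counts (vertical axes, from 0, each gene on its own scale) of the 10 genes in the 11 libraries. Points are libraries, and bars give the mean and SD of each group (n = 2 for VAT adjuvant alone, n = 3 for the others). Rel, Nfkbia, Nfkbid, Nfkbiz and Tnfaip3 separate VAT from Spl/LN, with all VAT libraries above all Spl/LN libraries.

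The other subunits moved little. Rela, encoding the transactivating subunit RelA (chr19:5637483-5648130), measured 1126, 1035 and 1001 normalized counts in Spl/LN and 790.2, 866 and 859 in VAT with adjuvant/Fat1562, so that the groups did not overlap. It was lower in VAT, at −0.33 ± 0.09 on the log2 scale (SE; 1.26-fold; edgeR adjusted p = 0.0257), a call that was lost without the filter on low counts (adjusted p = 0.0698) and without replicate 1 or 2 of either adjuvant/Fat1562 group (adjusted p up to 0.112). With adjuvant alone the Rela difference was −0.19 (SE 0.11, adjusted p = 0.261), which did not pass the test. Nfkb2, which encodes the p100 precursor of p52 (chr19:46304320-46312385), measured 1140.4, 1315 and 1355 normalized counts in Spl/LN and 1591, 1909 and 1666 in VAT with adjuvant/Fat1562. The VAT libraries were all higher, by 0.44 ± 0.10 on the log2 scale (SE; 1.36-fold; edgeR adjusted p = 0.00507), and with adjuvant alone the difference was 0.25 (SE 0.11, adjusted p = 0.145). Genes on the opposite strand overlap 18.1% of the Nfkb2 exon bases, and whether the counting used strand is not given in the sources used here.

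Nfkb1, encoding the p105 precursor of p50 (chr3:135584655-135691547), measured 906, 892 and 709 normalized counts in Spl/LN and 1048 and 1087 in VAT with adjuvant alone. These groups did not overlap, but the difference of 0.35 (SE 0.14, adjusted p = 0.0883) did not pass the test, and with adjuvant/Fat1562 it was 0.05 (SE 0.12, adjusted p = 0.843). Relb, whose product pairs with p52 in the noncanonical pathway (chr7:19606217-19629438), ran from 975 to 1278 normalized counts over all 11 libraries. Its tissue differences were −0.25 (SE 0.12, adjusted p = 0.193) with adjuvant alone and 0.02 (SE 0.11, adjusted p = 0.936) with adjuvant/Fat1562, with 95% confidence intervals of −0.51 to 0.01 and −0.21 to 0.25. Without a normalization factor, which moved the median gene by −0.15 on the log2 scale in the comparison of tissues with adjuvant alone, Rela and Relb were also called lower in VAT there (adjusted p = 0.0329 and 0.0245), by about that shift more.

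The inhibitors carried the largest differences between tissues. Nfkbia (chr12:55489410-55492647) measured 4499, 4624 and 4103 normalized counts in Spl/LN with adjuvant alone and 3455, 4226 and 4089.9 with adjuvant/Fat1562. In VAT it measured 22194 and 18248 with adjuvant alone and 14161, 12049 and 9280 with adjuvant/Fat1562. The lowest VAT library, an adjuvant/Fat1562 one, was far above the highest Spl/LN library. Nfkbia was higher in VAT by 2.20 ± 0.14 on the log2 scale (SE; 4.59-fold; edgeR adjusted p = 2.90e-09) with adjuvant alone and by 1.59 ± 0.12 on the log2 scale (SE; 3.01-fold; edgeR adjusted p = 9.68e-08) with adjuvant/Fat1562.

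Nfkbid and Nfkbiz encode IκBNS and IκBζ, nuclear IκB proteins that bind NF-κB dimers on chromatin and can repress or promote transcription depending on the gene. Nfkbid (chr7:30421732-30428746) measured 699, 1043 and 1032 normalized counts in Spl/LN and 5935 and 5372 in VAT with adjuvant alone. After adjuvant/Fat1562 it measured 898, 1020.2 and 796 in Spl/LN and 2634, 2562 and 2500.1 in VAT, which lay between the Spl/LN and the VAT adjuvant alone libraries. Nfkbid was higher in VAT by 2.61 ± 0.14 on the log2 scale (SE; 6.12-fold; edgeR adjusted p = 4.91e-10) with adjuvant alone and by 1.51 ± 0.13 on the log2 scale (SE; 2.84-fold; edgeR adjusted p = 2.88e-07) with adjuvant/Fat1562. Nfkbiz (chr16:55811375-55838899) measured 632, 569 and 869 in Spl/LN and 5851 and 5004 in VAT with adjuvant alone, and 701, 636 and 590.2 in Spl/LN and 3707, 2856 and 2379.6 in VAT with adjuvant/Fat1562. Again no VAT library overlapped a Spl/LN library, and the differences were 2.97 ± 0.17 on the log2 scale (SE; 7.86-fold; edgeR adjusted p = 1.37e-09) and 2.21 ± 0.16 on the log2 scale (SE; 4.64-fold; edgeR adjusted p = 3.94e-08).

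Tnfaip3 encodes A20, a ubiquitin-editing enzyme that shuts off signaling upstream of the IκB kinases (chr10:19000910-19015657). It measured 803, 934 and 757 normalized counts in Spl/LN and 8547 and 7459 in VAT with adjuvant alone, and 793, 906 and 749 in Spl/LN and 5936, 4743 and 4168 in VAT with adjuvant/Fat1562. The tissue difference was the largest of the 10 genes in both settings, at 3.27 ± 0.14 on the log2 scale (SE; 9.63-fold; edgeR adjusted p = 1.84e-11) with adjuvant alone and 2.60 ± 0.13 on the log2 scale (SE; 6.07-fold; edgeR adjusted p = 2.51e-10) with adjuvant/Fat1562. Bcl3, an IκB-like partner of p50 and p52 homodimers (chr7:19808462-19822770), was the least counted of the 10 and did not follow the other inhibitors. It ran from 142 to 260 normalized counts over all libraries with overlapping groups, and the tissue differences were 0.21 (SE 0.23, adjusted p = 0.600) and 0.29 (SE 0.21, adjusted p = 0.409), with intervals of −0.27 to 0.69 and −0.15 to 0.72.

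**Figure D2:**
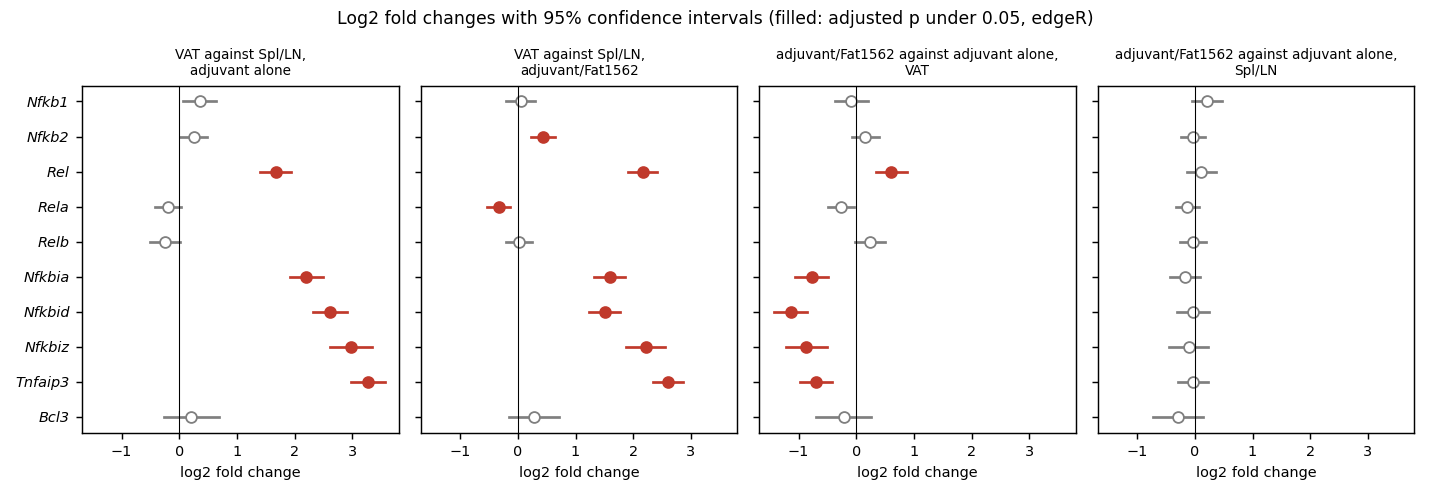
Log2 fold changes (horizontal axes) of the 10 genes in the 4 comparisons, with 95% confidence intervals and filled points for an adjusted p under 0.05 (edgeR). Rel and the inhibitors Nfkbia, Nfkbid, Nfkbiz and Tnfaip3 lie between 1.51 and 3.27 in the comparisons of tissues. With peptide in VAT, Rel lies above 0 and those 4 inhibitors below 0, and no point is filled in Spl/LN.

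In counts, 5 of the 10 genes were called higher in VAT with adjuvant alone and 0 lower, where 16.3% of all tested genes were called, 9.09% higher and 7.17% lower. At an unadjusted p under 0.05, 7 were higher and 0 lower, and DESeq2 and limma on quantile-normalized values both called 5 higher and 0 lower. With adjuvant/Fat1562, 6 were called higher and 1 lower against 15% of all tested genes, 8.26% higher and 6.73% lower. The median difference of the 10 genes was 1.01 and 0.97 on the log2 scale, where that of all tested genes was −0.03 and −0.01. Both comparisons are of digested against undigested tissue as far as the methods tell, since VAT was minced and digested with collagenase at 37 °C and no such step is described for Spl/LN, and Nfkbia and Nfkbiz are known to be induced quickly in stressed cells. Tissue of origin and preparation cannot be told apart in these libraries. A list of 21 immediate-early and heat shock genes known to rise during tissue digestion summed to 3087 to 4052 CPM in Spl/LN, 22242 and 26156 in VAT with adjuvant alone, and 10448 to 13271 in VAT with adjuvant/Fat1562. Of the list, 16 genes were called higher and 1 lower in VAT with adjuvant alone, and 16 higher and 2 lower with adjuvant/Fat1562, among them Fos at 5.32 (SE 0.25, adjusted p = 1.07e-10) and 4.60 (SE 0.25, adjusted p = 1.06e-09). Without replicate 2 of VAT adjuvant alone, 15 genes of the list were called higher and 1 lower there, and the 5 family calls with adjuvant alone stood, at 1.82 for Rel, 2.33 for Nfkbia, 2.68 for Nfkbid, 3.08 for Nfkbiz and 3.36 for Tnfaip3.

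The response to the peptide within VAT was asked of libraries that the methods describe as prepared in the same way. The VAT adjuvant alone libraries enter both this comparison and the one between tissues, so a rise there and a fall here are not independent. In VAT, Rel rose and the 4 inhibitors that were high in that tissue fell. Rel rose from 1674 ± 279 (n = 2) to 2550.5 ± 275 normalized counts (SD, n = 3), a difference of 0.61 ± 0.13 on the log2 scale (SE; 1.52-fold; edgeR adjusted p = 0.00540). Nfkbid fell the most, from 5654 ± 398 to 2565 ± 67.1 normalized counts, a difference of −1.14 ± 0.14 on the log2 scale (SE; 2.20-fold; edgeR adjusted p = 4.24e-05). Nfkbiz fell from 5427 ± 599 to 2981 ± 672, at −0.87 ± 0.17 on the log2 scale (SE; 1.82-fold; edgeR adjusted p = 0.00305). Neither inhibitor had overlapping groups, and both stayed above Spl/LN in all libraries after the peptide.

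Nfkbia fell from 20221 ± 2790.3 to 11830.2 ± 2448 normalized counts, at −0.77 ± 0.13 on the log2 scale (SE; 1.71-fold; edgeR adjusted p = 0.00127), and Tnfaip3 from 8003 ± 769.6 to 4949 ± 902, at −0.69 ± 0.13 on the log2 scale (SE; 1.62-fold; edgeR adjusted p = 0.00241). The other 5 genes did not pass the test, at −0.27 (SE 0.11, adjusted p = 0.141) for Rela, 0.23 (SE 0.12, adjusted p = 0.298) for Relb and −0.22 (SE 0.23, adjusted p = 0.649) for Bcl3. Nfkb1 and Nfkb2 stood at −0.09 and 0.16, with intervals of −0.37 to 0.20 and −0.07 to 0.39. Thus 1 of 10 genes was called higher and 4 lower, where 8.3% of all tested genes were called, 4.32% higher and 3.97% lower. The median over the 10 genes was −0.24 on the log2 scale and over all tested genes 0.01.

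The VAT adjuvant alone side of this comparison holds 2 libraries. Without replicate 1 of VAT adjuvant alone, Nfkbiz and Tnfaip3 were no longer called (adjusted p = 0.0548 and 0.0524), and without replicate 2, the library high in immunoglobulin transcripts, Rel was at 0.45 and no longer called (adjusted p = 0.129), while the inhibitors were still called, at −0.91 for Nfkbia, −1.21 for Nfkbid, −0.97 for Nfkbiz and −0.79 for Tnfaip3. In each case the lone remaining library was taken to vary like those of the other groups. Most of the digestion list moved with the inhibitors, with 16 of its 21 genes below 0 and 5 above 0 with the peptide in VAT. Of the 21, 0 were called higher and 12 lower (3 and 14 at an unadjusted p under 0.05, 0 and 12 with DESeq2, 0 and 13 with limma). Examples of those called lower are Fosb at −1.92 (SE 0.31, adjusted p = 5.86e-04) and Egr1 at −2.23 (SE 0.20, adjusted p = 2.13e-06). The heat shock genes Hspa8, Hspe1 and Dnajb1 of the list did not fall. Their mean normalized counts in VAT were 9211, 293 and 828 with adjuvant alone and 9985, 394 and 1036 with adjuvant/Fat1562. The part of this list in the fall of the inhibitors was not tested. As the libraries pool 1000 cells, fewer cells with a transcript and less transcript per cell cannot be told apart.

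In Spl/LN the peptide left no called difference in the family. Of the 10 genes, 0 passed the edgeR test, 0 had an unadjusted p under 0.05, and DESeq2 and limma also called 0, where 3.98% of all tested genes were called, 2.58% higher and 1.4% lower. Rel measured 527 ± 51.1 normalized counts with adjuvant alone and 569.8 ± 30.9 with adjuvant/Fat1562, a difference of 0.11 with an interval of −0.13 to 0.36. Nfkbid stood at −0.03 (interval −0.31 to 0.24), Tnfaip3 at −0.03 (−0.29 to 0.23), Nfkbia at −0.17 (−0.43 to 0.09) and Nfkbiz at −0.11 (−0.44 to 0.23). Over the 10 genes, the bounds of the intervals reached from −0.73 (Bcl3) to 0.47 (Nfkb1). The median was −0.04 and that of all tested genes lay at 0. The digestion list also moved with the peptide in Spl/LN, where no digestion is described. Of its 21 genes, 3 were called higher and 3 lower (6 and 4 at an unadjusted p under 0.05, 2 and 2 with DESeq2, 1 and 2 with limma). Egr1 and Fos, named above, went opposite ways there. Egr1 measured 455 ± 98.7 normalized counts with adjuvant alone and 864 ± 107 with adjuvant/Fat1562 (SD, n = 3). Fos measured 158 ± 56.9 and 80.1 ± 33.0. What else moves this list was not tested.

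Whether the peptide acted differently in the tissues was tested by the interaction term. The peptide difference of Nfkbid was lower in VAT than in Spl/LN, at −1.11 ± 0.19 on the log2 scale (SE; edgeR adjusted p = 0.00293), and it was called in all 19 alternatives tried. That of Tnfaip3 was −0.67 ± 0.18 on the log2 scale (SE; edgeR adjusted p = 0.0485) and lay at the edge of the threshold, being lost in 11 of 19 alternatives, including without any single library other than replicate 2 of Spl/LN adjuvant alone or replicate 1 of VAT adjuvant/Fat1562 (adjusted p up to 0.214). Nfkbia at −0.61 (SE 0.18, adjusted p = 0.0787), Nfkbiz at −0.76 (SE 0.23, adjusted p = 0.0825) and Rel at 0.49 (SE 0.17, adjusted p = 0.133) did not pass, so a different response of these genes between tissues was not shown. Of the 10 genes, 0 were called higher and 2 lower, where 3.72% of all tested genes were called, 1.7% higher and 2.02% lower. At an unadjusted p under 0.05, 1 was higher and 4 lower, and DESeq2 called 0 higher and 4 lower. Nfkbiz was called without replicate 3 of Spl/LN adjuvant alone, at −0.96 (adjusted p = 0.0110). The digestion list moved the same way in this term, with 0 of its 21 genes called higher and 6 lower and a median of −0.74 on the log2 scale (1 and 9 at an unadjusted p under 0.05, 0 and 7 with DESeq2, 0 and 5 with limma), among them Egr1 at −3.16 (SE 0.27, adjusted p = 8.53e-06) and Zfp36 at −1.76 (SE 0.19, adjusted p = 5.09e-05). Its part in the Nfkbid and Tnfaip3 values was not tested.

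The make-up of the subunit pool followed Rel. Per kb of exon, Rel made up 6.40 ± 0.737% of the summed transcripts of the 5 subunits in Spl/LN with adjuvant alone (SD, n = 3), 7.10 ± 0.157% in Spl/LN after adjuvant/Fat1562 (n = 3), 18.1 ± 2.00% in VAT with adjuvant alone (n = 2) and 24.8 ± 1.43% in VAT with adjuvant/Fat1562 (n = 3). Rela, the largest share in Spl/LN at 34.0 ± 1.66% and 32.0 ± 3.05%, made up 26.6 ± 0.586% and 19.9 ± 1.53% in VAT. Shares add up to a whole, so a rise of one lowers the others. The share of Relb ran from 24.7 to 29.4% in Spl/LN and from 19.5 to 22.45% in VAT. Over all 11 libraries the share of Nfkb1 ran from 5.24 to 8.59% and that of Nfkb2 from 24.1 to 28.1%. In replicate 1 of VAT adjuvant alone by itself, Rel made up 19.5% and Rela 27.0%. No test was run on shares.

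The summed inhibitors exceeded the summed subunits in every library. Their ratio per kb was 3.14 ± 0.131 in Spl/LN with adjuvant alone, 2.91 ± 0.140 in Spl/LN after adjuvant/Fat1562, 13.9 ± 0.945 in VAT with adjuvant alone and 7.13 ± 1.27 in VAT with adjuvant/Fat1562. The VAT groups did not overlap each other or Spl/LN, and replicate 1 of VAT adjuvant alone had a ratio of 14.6. Nfkbia held most of this sum, at 2738 ± 169 normalized counts per kb in Spl/LN and 12559 ± 1733 in VAT with adjuvant alone, followed by Nfkbid at 394 ± 83.4 and 2409.9 ± 169.5. Tnfaip3 and Nfkbiz, at 115 ± 12.7 and 137 ± 31.5 per kb in Spl/LN and 1108 ± 107 and 1082 ± 119 in VAT with adjuvant alone, did not differ from each other beyond their spread.

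**Figure D3:**
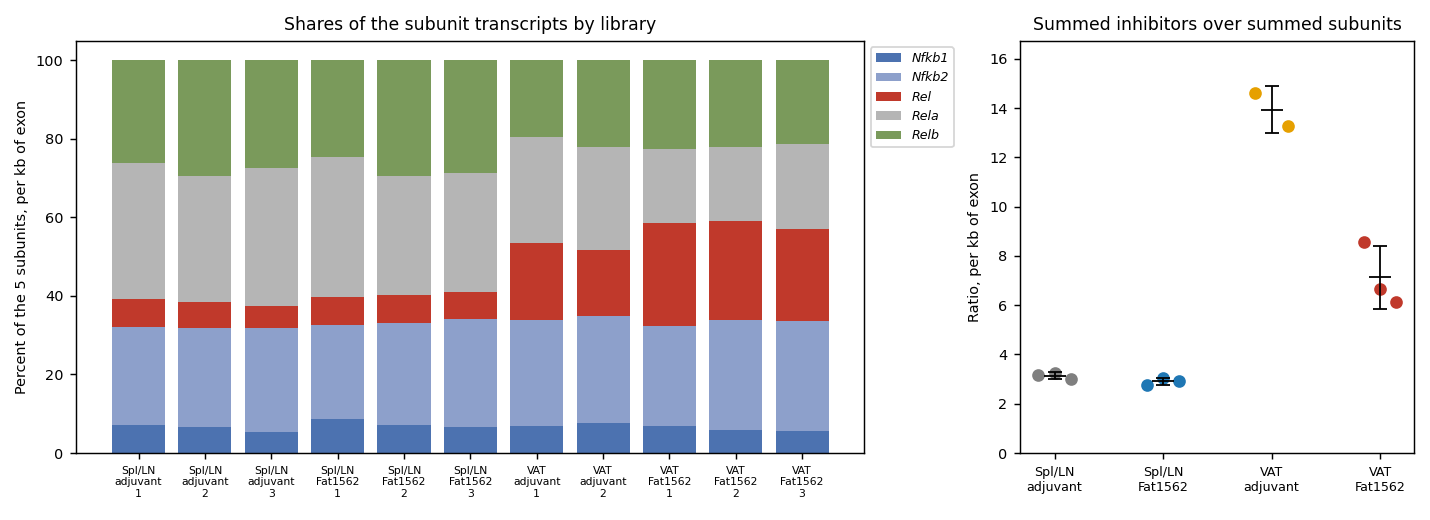
Left, share of each subunit in the summed transcripts of the 5 subunits per kb of exon (percent, stacked bars, 1 bar per library). Right, ratio of the 5 summed inhibitors to the 5 summed subunits per kb, with points for libraries and bars for the mean and SD. The Rel share runs from 5.59 to 7.28% in Spl/LN and from 16.7 to 26.1% in VAT, and the ratio from 2.76 to 3.25 in Spl/LN and from 6.15 to 14.6 in VAT.

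Around the family, genes of the pathway were called in both directions. Counts in the following lists stand against 16.3% of all tested genes called between tissues with adjuvant alone, 15% with adjuvant/Fat1562, 8.3% with the peptide in VAT and 3.98% with it in Spl/LN. Of 16 other inhibitors, 4 were called higher and 0 lower in VAT with adjuvant alone (6 and 1 at an unadjusted p under 0.05; DESeq2 called 5 and 0, limma 4 and 0). They were Tnip3, an A20-binding protein, at 2.38 (SE 0.36, adjusted p = 1.29e-04), Rnf11, a subunit of the A20 complex, at 1.70 (SE 0.41, adjusted p = 0.00761), Zc3h12a, encoding the RNase Regnase-1, at 1.20 (SE 0.21, adjusted p = 4.88e-04), and Nfkbie, encoding IκBε, at 0.79 (SE 0.18, adjusted p = 0.00582). With adjuvant/Fat1562 also 4 were higher and 0 lower (6 and 1 at an unadjusted p under 0.05; DESeq2 5 and 0, limma 3 and 0), led by N4bp1, encoding a suppressor of NF-κB signaling, at 1.18 (SE 0.14, adjusted p = 1.50e-05) and Zc3h12a at 1.15 (SE 0.20, adjusted p = 4.80e-04). With the peptide in VAT, Zc3h12a fell and N4bp1 rose. Zc3h12a measured 259.7 and 301 normalized counts without and 167, 179 and 163 with it, at −0.72 (SE 0.20, adjusted p = 0.0369), and N4bp1 differed by 0.68 (SE 0.16, adjusted p = 0.0126). In Spl/LN 0 of the 16 were called (4 higher and 3 lower at an unadjusted p under 0.05; DESeq2 called 1 in each direction). With the peptide in VAT, 1 of the 16 was called in each direction, a share near that of all tested genes. Without replicate 2 of VAT adjuvant alone, Nfkbie (adjusted p = 0.0638) and Rnf11 (adjusted p = 0.0797) were no longer called higher with adjuvant alone, nor was Zc3h12a lower with the peptide (adjusted p = 0.264). The medians of the list lay between 0.01 and 0.21 on the log2 scale in the 4 comparisons.

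The 18 kinases and adaptors of the pathway went both ways. Between tissues 4 were called higher and 2 lower with adjuvant alone, and 2 higher and 3 lower with adjuvant/Fat1562. Prkcq, encoding the TCR-proximal kinase PKCθ, measured 1751, 1690.1 and 1861 normalized counts in Spl/LN with adjuvant alone, 1725, 1554 and 1388 in Spl/LN after adjuvant/Fat1562, 821 and 878 in VAT with adjuvant alone and 447, 454 and 563 in VAT with adjuvant/Fat1562. It was lower in VAT, at −1.06 (SE 0.13, adjusted p = 9.84e-06) with adjuvant alone and −1.67 (SE 0.11, adjusted p = 1.47e-08) with adjuvant/Fat1562, and it fell with the peptide in VAT, at −0.80 (SE 0.12, adjusted p = 4.78e-04). Traf5, a TNF receptor adaptor, was lower in VAT as well, at −1.37 (SE 0.19, adjusted p = 4.53e-05) and −1.18 (SE 0.15, adjusted p = 3.74e-05). Malt1, the protease of the complex that links the TCR to the IκB kinases, was higher, at 0.74 (SE 0.18, adjusted p = 0.00785) and 0.72 (SE 0.16, adjusted p = 0.00506). Map3k14, encoding the noncanonical kinase NIK, was higher in VAT with adjuvant alone, at 0.85 (SE 0.25, adjusted p = 0.0245), and fell with the peptide in VAT, at −1.15 (SE 0.25, adjusted p = 0.00717). With the peptide in VAT 1 of the 18 was called higher and 3 lower (DESeq2 1 and 4, limma 0 and 3), and in Spl/LN 0 (4 higher and 1 lower at an unadjusted p under 0.05; DESeq2 called 1 higher, limma 0). Without replicate 2 of VAT adjuvant alone, 0 kinases and adaptors were called higher and 2 lower between tissues with adjuvant alone, where Malt1 (adjusted p = 0.199) and Map3k14 (adjusted p = 0.247) were lost, and 0 and 1 with the peptide in VAT, where Map3k14 was lost (adjusted p = 0.130) and Prkcq was at −0.75 (adjusted p = 0.0107).

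Among 12 upstream receptors, of which 11 were tested, several costimulatory TNF receptors were higher in VAT, and Tnfrsf9 and Tnfrsf1b rose with the peptide in both tissues. Tnfrsf9, encoding 4-1BB, measured 1884, 2352 and 2425 normalized counts in Spl/LN with adjuvant alone and 4451, 4229.6 and 4027 with adjuvant/Fat1562, and in VAT 5872 and 5240 without and 14068, 10850.4 and 7902 with the peptide. The 4 groups did not overlap, and the rise was 0.98 (SE 0.17, adjusted p = 0.00121) in VAT and 0.93 (SE 0.15, adjusted p = 0.00128) in Spl/LN. Tnfrsf1b, encoding TNFR2, rose by 0.40 (SE 0.08, adjusted p = 0.00617) in VAT and 0.44 (SE 0.08, adjusted p = 0.00251) in Spl/LN. Tnfrsf4, encoding OX40, and Tnfrsf18, encoding GITR, were higher in VAT with adjuvant/Fat1562, at 0.84 (SE 0.11, adjusted p = 4.22e-05) and 0.66 (SE 0.10, adjusted p = 1.03e-04). Il1rl1, which encodes the IL-33 receptor ST2, measured 6622 and 6454 normalized counts in VAT with adjuvant alone and 2772, 1614 and 1534 with adjuvant/Fat1562, against 784, 742 and 854 in Spl/LN with adjuvant alone. It fell with the peptide in VAT, at −1.73 (SE 0.19, adjusted p = 1.16e-05), whereas Il18r1, encoding a chain of the IL-18 receptor, rose from 126 and 66.2 to 249.9, 244 and 283, at 1.42 (SE 0.22, adjusted p = 4.65e-04). In all, 4 receptors were called higher and 2 lower in VAT with adjuvant alone, 5 and 0 with adjuvant/Fat1562, 5 and 1 with the peptide in VAT, and 3 and 0 with it in Spl/LN. DESeq2 called 5 and 0 with adjuvant/Fat1562 and 4 and 1 with the peptide in Spl/LN, and at an unadjusted p under 0.05 these counts were 5 and 0, and 5 and 2. Without replicate 2 of VAT adjuvant alone, 3 were called higher and 1 lower with the peptide in VAT, at 0.90 for Tnfrsf9, −1.75 for Il1rl1 and 1.04 for Il18r1, and Tnfrsf1b was no longer called (adjusted p = 0.0966).

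Of 29 genes known as NF-κB targets, 25 were tested, and 14 were called higher and 5 lower in VAT with adjuvant alone. After adjuvant/Fat1562 the counts were 11 and 3, with the peptide in VAT 1 and 7, and with the peptide in Spl/LN 2 and 7. Gadd45b, a stress-induced gene, measured 417, 552 and 450 normalized counts in Spl/LN with adjuvant alone and 8904 and 7144 in VAT, a difference of 4.09 (SE 0.16, adjusted p = 1.21e-11). Il2ra, encoding CD25, and Myc were higher in VAT with adjuvant/Fat1562, at 1.92 (SE 0.15, adjusted p = 9.30e-08) and 1.90 (SE 0.14, adjusted p = 5.29e-08). Not all targets followed: Ccr7, the lymphoid homing receptor, was lower in VAT with adjuvant alone, at −3.29 (SE 0.35, adjusted p = 2.88e-06), and fell with the peptide in Spl/LN, at −3.07 (SE 0.29, adjusted p = 1.28e-05). With the peptide in VAT, Cd69 fell from 6477 and 4975 to 1982, 1427 and 1549 normalized counts, at −1.79 (SE 0.13, adjusted p = 1.91e-07), and Tnf from 949.8 and 555 to 286, 277 and 262, at −1.45 (SE 0.23, adjusted p = 5.12e-04). Ccl5 was the 1 target called higher, at 1.89 (SE 0.29, adjusted p = 3.98e-04), and it was also called higher in Spl/LN, at 1.62 (SE 0.25, adjusted p = 9.21e-04). Without replicate 2 of VAT adjuvant alone, 13 targets were called higher and 4 lower between tissues with adjuvant alone, and 1 and 5 with the peptide in VAT, where Cd69 was at −1.97 and Tnf at −1.79. The median of the 25 targets was 0.88 and 0.61 on the log2 scale between tissues, −0.19 with the peptide in VAT and −0.05 in Spl/LN. The Bcl2a1 genes of this list and the Hspa1 genes of the digestion list are near-identical copies whose shared reads make their counts uncertain.

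**Figure D4:**
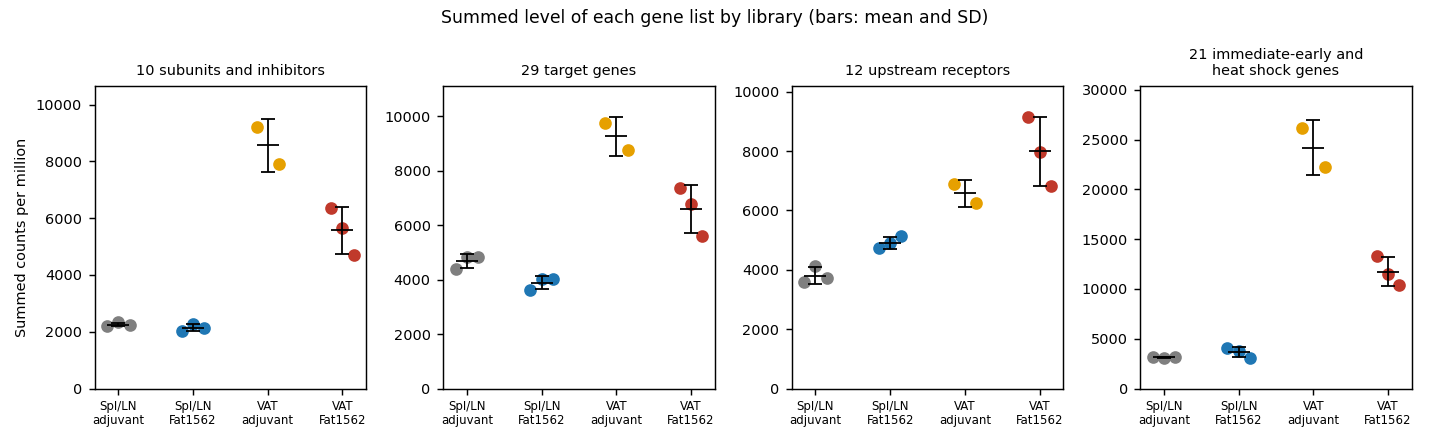
Summed CPM (vertical axes, from 0) of 4 gene lists in each library, with points for libraries and bars for the mean and SD of each group. The 10 family genes sum to 2038 to 2330 in Spl/LN, 7914 and 9231 in VAT with adjuvant alone and 4709 to 6357 in VAT with adjuvant/Fat1562, and the 21 digestion genes take the same order of tissues, whereas the 12 receptors reach their highest values in VAT with adjuvant/Fat1562.

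The genes whose levels ran most like each family gene were sought among 8966 genes over the 11 libraries (Pearson r of log2 CPM). The libraries fall into 2 tissues, and each r holds the difference between them. Nfkbia ran most like Gadd45b (r = 0.994) and Pim1 (r = 0.990), Nfkbid like 4931406C07Rik and Ctla2a (both r = 0.988), Nfkbiz like Gm45223 (r = 0.994) and Map3k8 (r = 0.989), and Tnfaip3 like Areg (r = 0.994) and Gm8818 (r = 0.993). Rel ran most like Ccr8 (r = 0.991), a chemokine receptor gene, and Got1 (r = 0.988). The closest genes of the remaining members were less close, at r = 0.957 for Rela with Snrk, 0.944 for Nfkb1 with Agap3, 0.940 for Nfkb2 with Inf2, 0.900 for Bcl3 with Elovl5 and 0.830 for Relb with Nus1.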

How the data were processed

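Treg cells were profiled by Smart-seq2, which copies polyadenylated mRNA from an oligo(dT) primer and amplifies it by PCR, with paired reads and no molecular identifiers. The authors deposited a table of counts, whole numbers per gene without normalization. The submitters' processing notes name STAR 2.5.4, featureCounts and the build mm10. The annotation, strand setting and handling of multi-mapping reads are not given in the sources used here.

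Groups came from the sample labels, with 0 columns of the table left unmatched. The methods call the replicates biological without saying whether each came from a separate mouse, and p-values measure the spread between these libraries. Depth was 4490242 to 6570057 counts per library, and the biological coefficient of variation was 19.1%. A gene was tested if 1 or more groups had a mean above 10 after scaling to the mean total. The test was the quasi-likelihood test of edgeR 4.0.16 (R 4.3.3) with TMM factors, a prior count of 0.125 and all 4 groups in the same fit. P-values were adjusted by Benjamini-Hochberg over all 12932 tested genes and called at an adjusted p under 0.05. To obtain normalized counts, each count was divided by the library size times its TMM factor and multiplied by the mean of these products. Errors are the SD between libraries or the SE of the fit. Exon lengths are unions of GENCODE vM21 exons, and values per kb assume reads spread over all of them.

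The family and the gene lists were chosen with earlier results of these data known. From each list at most the 4 called genes with the largest change in a comparison were named, and likeness was limited to genes with a mean normalized count above 50. Hspa8, Hspe1 and Dnajb1 were named besides, after their values were seen, as were Egr1 and Fos with the peptide in Spl/LN. Alternatives were no filter, a mean above 50, a coefficient of variation under 0.7, DESeq2 1.42.0, its size factors in edgeR, limma 3.58.1 on quantile-normalized values, only the groups compared, a replicate block, each library left out (for the gene lists chosen after seeing the data), and library totals without a normalization factor, the last also chosen after seeing the data. The steps were tested on simulated data.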

Additional observations from a re-analysis of the deposited data

Results flagged for a closer look

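The interaction term, which tests whether the peptide difference is the same in VAT and Spl/LN, was called for 2 of the 10 genes. For Nfkbid it was −1.11 on the log2 scale (95% confidence interval −1.51 to −0.71, edgeR adjusted p = 0.00293): Nfkbid fell by 1.14 with the peptide in VAT and stood at −0.03 in Spl/LN. For Tnfaip3 it was −0.67 (interval −1.05 to −0.29, edgeR adjusted p = 0.0485), from −0.69 in VAT and −0.03 in Spl/LN. Nfkbiz at −0.76 (interval −1.25 to −0.27) and Nfkbia at −0.61 (interval −0.99 to −0.22) lay near the Tnfaip3 value. Neither passed (edgeR adjusted p = 0.0825 and 0.0787), so the calls do not set Tnfaip3 apart from them. The Nfkbid value kept its call in all 19 alternatives, with values from −1.21 to −0.94, whereas the Tnfaip3 call was lost in 11 of 19, with adjusted p-values from 0.000264 to 0.214 over them. Of all tested genes 3.72% were called in this term, and of 21 stress and digestion genes 0 were called higher and 6 lower, with a median of −0.74. Single samples were not tested as outliers in groups of 2 or 3 libraries.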

How the results depend on the processing

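The 5 called differences of Rel, Nfkbia, Nfkbid, Nfkbiz and Tnfaip3 between tissues kept their direction and call in every alternative, in both immunization settings. Over all genes of the family and all alternatives, 935 values kept direction and call, 19 lost and 11 gained a call, and 25 changed sign, all of them uncalled values near 0. With library totals only and with quantile normalization, the tissue difference with adjuvant/Fat1562 was −0.020 and −0.0093 for Nfkb1 and −0.048 and −0.040 for Relb. When 1 library was left out, it ran from −0.026 to 0.15 for Nfkb1 and from −0.078 to 0.091 for Relb, and that of Bcl3 with adjuvant alone from −0.0028 to 0.38. The peptide difference then ran from −0.17 to 0.0072 for Nfkb1 in VAT, and in Spl/LN from −0.086 to 0.036 for Nfkb2, −0.20 to 0.066 for Nfkbid, −0.22 to 0.099 for Nfkbiz, −0.11 to 0.061 for Relb and −0.11 to 0.067 for Tnfaip3, and the interaction of Bcl3 from −0.095 to 0.29. The family genes called ran from 3 to 5 with the peptide in VAT and from 1 to 4 in the interaction, and all genes called from 1259 to 2114 and 1289 to 2377 between tissues, 508 to 1398 with the peptide in VAT, 190 to 502 in Spl/LN and 240 to 575 in the interaction. In the interaction 4 family genes were called with no filter, a coefficient of variation under 0.7 or DESeq2, where Nfkbia and Nfkbiz were added, and 1 with library totals only. All genes called were 793 in place of 515 in Spl/LN with no filter and with DESeq2, and 789 in place of 481 in the interaction with DESeq2. Library totals only gave 902 higher and 1639 lower calls between tissues with adjuvant alone in place of 1175 and 927, 892 and 1150 in place of 1068 and 870 with adjuvant/Fat1562, 264 and 232 in place of 334 and 181 with the peptide in Spl/LN, where quantile normalization gave 292 and 241, and 307 and 197 in place of 220 and 261 in the interaction. The causes were not tested.

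Over the 15 pairs of libraries with the same replicate number, deviations from group means had correlations from −0.04 to 0.06, with a median of 0.0022. Pairs of Spl/LN and VAT of the same immunization, which alone could share a mouse, ran from 0.027 to 0.056 with the same number. With other numbers such pairs ran from −0.066 to 0.034. Whether replicate numbers mark shared mice was not tested, and the main tests took the libraries as unpaired. The replicate block joined all libraries with the same number, including those of different immunizations, which cannot share a mouse. It was therefore no test of pairs of Spl/LN and VAT of the same immunization. With this block, 1 family gene was called in the interaction, since Tnfaip3 was at −0.59 (adjusted p = 0.0508). The peptide difference of Nfkb1 in VAT was 0.0041. Called genes were 1804 and 1861 between tissues, 990 and 515 with the peptide in VAT and Spl/LN, and 435 in the interaction. No other call in the family changed with this block. How the calls stand with tissues paired within an immunization was not tested. The least counted gene of the family, Bcl3, had 155 or more counts per library, and since these are PCR reads without molecular identifiers from 1000 cells, they do not give the number of molecules sampled. What depth limits was not tested.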
